A study of Mus musculus with 4 samples.

Results

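FACT, the histone chaperone that contains SSRP1 together with SPT16, loosens and rebuilds nucleosomes while RNA polymerase II or the replication machinery passes through them. FACT is known to travel with polymerase along transcribed genes, so its binding can form long stretches as well as single sites. ChIP-seq shows such a stretch as a wide peak, or as a row of neighbouring peaks where the signal rises above the calling threshold only in places.

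The regions described here are long SSRP1 domains in E14 cells, an established line of mouse embryonic stem cells grown on gelatin in medium with serum and the cytokine LIF. Chromatin was fixed with formaldehyde, sheared by sonication and pulled down with an SSRP1 antibody. The series holds 2 SSRP1 ChIP samples and 2 inputs of the same untreated cells, and 1 peak list for each ChIP sample was analysed here. The labels separate the samples by number only and do not say whether the replicates were separate cultures, so differences between the lists may be technical.

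Domains were chosen by the positions of the peaks themselves. The peaks of both lists were pooled, and peaks with a gap of at most 3000 bp were chained into 1 region. A region counted as a long domain when it spanned 5000 bp or more on an autosome, outside a window of chromosome 13 (21.6 to 23.9 Mb) and a window of chromosome 3 (96 to 96.31 Mb) that were set apart as histone gene clusters. This gave 166 long domains among 3975 regions. They held 1460 of 7353 peaks: 903 of the 5011 peaks of replicate 1 (18.0%) and 557 of the 2342 peaks of replicate 2 (23.8%). Because position and length chose them, the values below describe the domains and carry no test.

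All positions are on mm9 and count from 1, and the start of a domain is its end with the lower coordinate. An annotation of this build was not used here, so the domains are named by position and no gene, exon or UTR is assigned to them. A fold is the authors' enrichment of a peak's summit over its local background, and q is the peak's p-value after the authors' correction for multiple tests. Both describe peaks within a list. The lists give no read totals, but the number of ChIP fragments over each summit and the local background could be worked out from the fold and the p-value. A summit of replicate 1 had 10 to 385 fragments (median 19) and one of replicate 2 had 26 to 400 (median 44).

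Most long domains were between 5 and 10 kb and were rows of separate peaks. The span ranged from 5006 to 24200 bp with a median of 7183 bp (interquartile range 5881 to 9363 bp). Spans of 10 kb or more were seen in 38 domains, of 15 kb or more in 16 and of 20 kb or more in 4. A domain held 2 to 36 peaks, with a median of 8, counting both lists. Peaks covered a median of 55.9% of the span (range 15.9 to 100%). Summed over all 166 domains, peaks covered 842 kb of 1421 kb, or 59.2%.

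**Figure D1:**
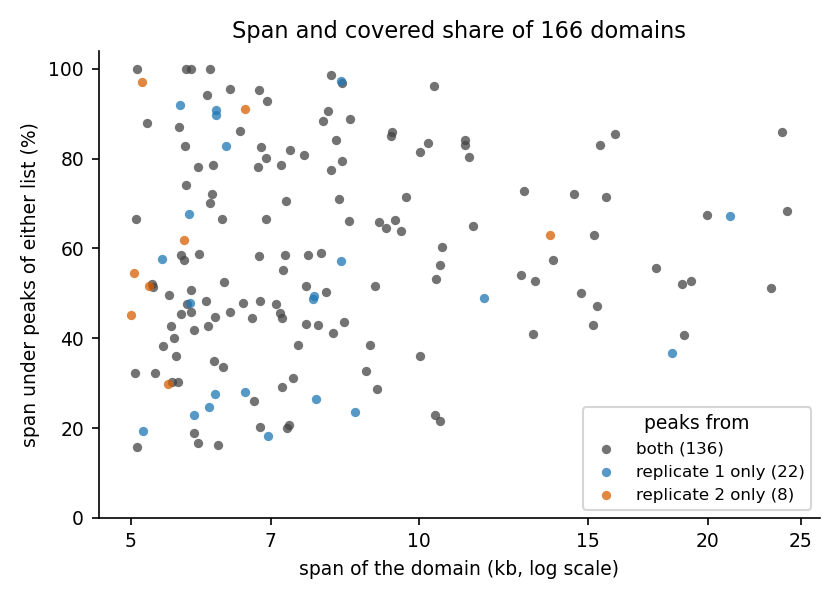
Span of each of the 166 long domains (x axis, kb, log scale) against the share of that span under peaks of either list (y axis, %), 1 point per domain, coloured by the list or lists whose peaks it holds. Covered shares from 15.9 to 100% occur among short domains, and the 4 domains of 20 kb or more lie between 51.3 and 86.0%.

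The domains ranged from solid blocks to loose rows of small peaks. In 23 domains 1 peak covered 50% or more of the span, and 17 domains were covered to 90% or more. Complete cover was seen in 4: chromosome 17 at 39979976 to 39985753, chromosome 11 at 62416279 to 62422324, chromosome 2 at 32817204 to 32822904, and chromosome 11 at 115880781 to 115885857. At the other end, 14 domains were covered to under 25% and 13 held no peak of 500 bp or more. The widest peak had a median of 1618.5 bp, or 19.9% of the span, so the typical domain was a chain and not a single broad peak. The rule largely set this, since only 5 peaks of replicate 1 and 10 of replicate 2 reached 5000 bp by themselves. The gap limit mattered too: a limit of 1000 bp gave a median cover of 82.5%, against 55.9% with 3000 bp. Within a list, neighbouring summits of a domain lay a median of 1184 bp apart in replicate 1 and 1388 bp in replicate 2, and the gaps between neighbouring peaks had medians of 492 and 479 bp.

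Member peaks were wide and only moderately enriched. Their median width was 398 bp in replicate 1, against 288 bp for the other peaks of that list, and 477 against 319 bp in replicate 2. Width helped to choose the domains, so this gap is partly built in. The folds hardly differed: the median was 4.78 for members and 4.55 for the other peaks in replicate 1, and 5.45 for both in replicate 2. Of the 100 widest peaks, 74 in replicate 1 and 62 in replicate 2 lay in long domains. Of the 100 peaks of highest fold, 28 and 15 did. Members were 18.0% of the list of replicate 1 and 23.8% of that of replicate 2, so their share of the highest folds was above their share of the list in replicate 1 and below it in replicate 2. By −log10 q the 100 highest peaks held 30 and 11 members. The lists also hold peaks on X, Y and in the windows set apart, which could not be members. This applies to every comparison with a whole list or its other peaks, and its effect was not tested. All member peaks together held 29.2% of all bases under peaks in replicate 1 (632 of 2168 kb) and 37.3% in replicate 2 (493 of 1321 kb).

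The longest domain lay on chromosome 2 at 165634792 to 165658991. It spanned 24200 bp and held 20 peaks of replicate 1 and 9 of replicate 2, which covered 63.1% and 28.0% of it. The highest folds, 7.95 in replicate 1 and 10.5 in replicate 2, had summits only 121 bp apart. The peaks of replicate 1 ran along the whole length with folds from 2.94 to 7.95, while replicate 2 had no summit beyond 15.8 kb from the start.

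On chromosome 13, the domain at 98252728 to 98276612 (23885 bp) was fuller in replicate 2. There 14 peaks covered 83.5% of it, among them 1 of 6483 bp, whereas 18 mostly short peaks of replicate 1 covered 38.6%. The highest folds were 9.72 in replicate 1 and 8.74 in replicate 2. Another domain of chromosome 2, at 162891042 to 162914346 (23305 bp), was a loose row in both lists, with 13 peaks covering 42.1% in replicate 1 and 10 covering 21.0% in replicate 2. Its highest folds were 7.48 and 5.34.

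The domain of chromosome 2 at 164247653 to 164268760 (21108 bp) had 20 peaks in replicate 1 and none in replicate 2. Its strongest peak, of 3215 bp and fold 9.36, stood at the far end, and a peak of 2035 bp and fold 6.87 stood at the start. The 18 peaks between them had folds from 2.75 to 6.62. The strongest summit lay over 2.52 times the genome background.

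Chromosome 8 held the domain with the most peaks, at 44371227 to 44391174 (19948 bp). It had 20 peaks of replicate 1, none wider than 733 bp, and 16 of replicate 2, the widest 3984 bp. The highest fold was 8.10 in replicate 1, 1.73 kb from the start, and 14.4 in replicate 2, 15.6 kb from the start. At 1.73 kb replicate 2 also had a peak, with a fold of 11.97, and its second highest, 13.5, stood at 3.67 kb.

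Chromosome 17 had 2 of the 12 longest. The one at 29169564 to 29188775 (19212 bp) began with its strongest peak in both lists, with folds of 9.18 and 7.23 and summits 35 bp apart, and then held lower peaks with folds of 2.71 to 5.91. The one at 34243729 to 34259394 (15666 bp) had its strongest peaks at 12.4 kb, with folds of 10.4 and 9.72 and summits 27 bp apart. On chromosome 6, the domain at 51403183 to 51420842 (17660 bp) had a wide main peak in each list (3869 and 3003 bp, folds 10.1 and 11.7) and a smaller pair near the far end with folds of 8.28 and 6.61.

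On chromosome 11, the domain at 33047076 to 33063081 (16006 bp) was strong at both ends. Replicate 1 had a fold of 9.59 at 1.12 kb and of 6.50 at 15.7 kb, and replicate 2 had 8.04 at 1.22 kb and 8.38 at 15.5 kb. The lists differed in which end was the higher, so their strongest summits lay 14425 bp apart. Between the ends folds were 3.04 to 7.54.

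The other 3 of the 12 longest rested almost wholly on replicate 1. On chromosome 9, at 102617734 to 102636629 (18896 bp), 15 peaks of replicate 1 stood against 1 of replicate 2, with highest folds of 11.5 and 5.47. The domain of chromosome 18 at 85104379 to 85123159 (18781 bp) had 12 peaks against 1, with highest folds of 12.8 and 4.93. In both, the lone peak of replicate 2 lay near the strongest summit of replicate 1, at a distance of 608 and 851 bp. On chromosome 3, at 41378084 to 41396452 (18369 bp), 17 small peaks of replicate 1 with folds up to 6.36 had no counterpart.

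**Figure D2:**
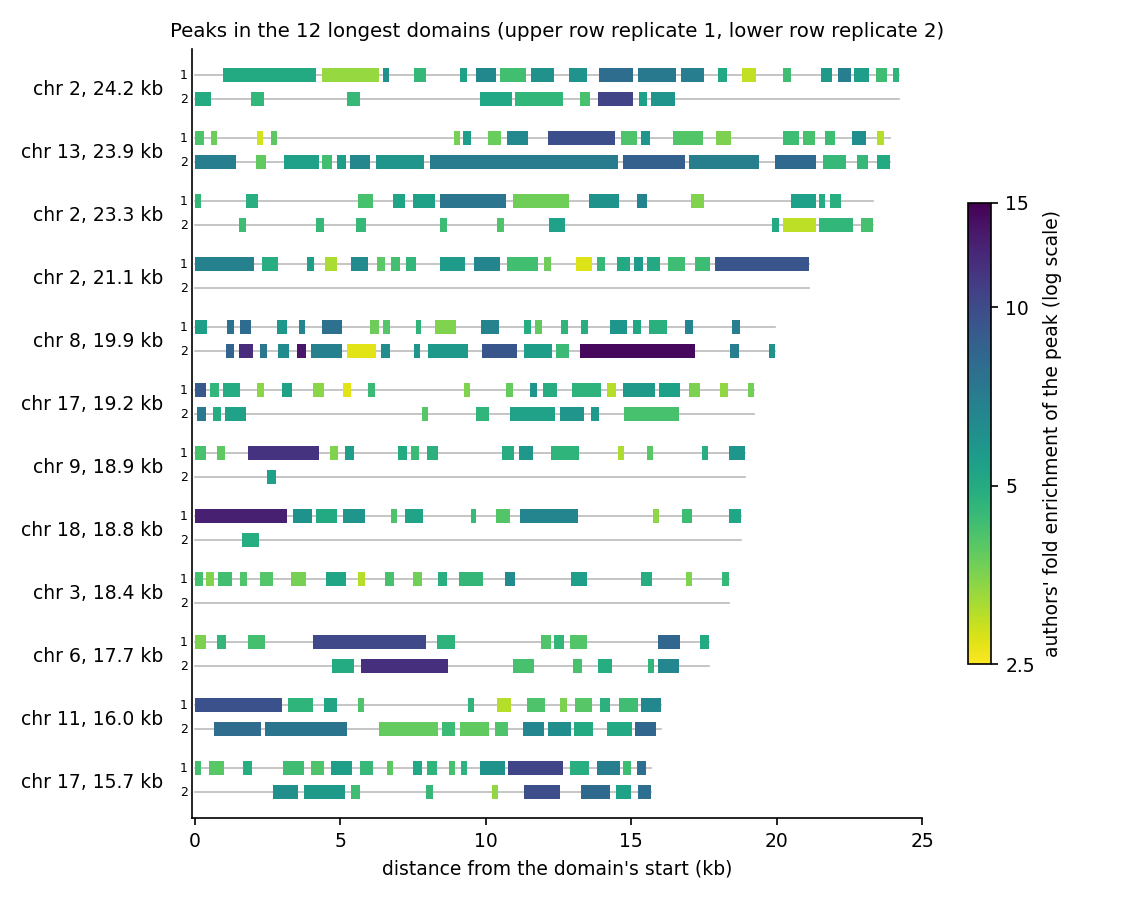
Peaks of replicate 1 (upper row) and replicate 2 (lower row) in each of the 12 longest domains, drawn to scale by distance from the domain's start (x axis, kb), coloured by the authors' fold (log scale); the grey line marks the span. The domain of chromosome 13 is filled mostly by replicate 2, the 21.1 kb domain of chromosome 2 and the one of chromosome 3 hold replicate 1 peaks only, and the 16.0 kb domain of chromosome 11 has its higher folds at both ends.

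The domains of highest fold were shorter than these. The strongest was on chromosome 7 at 3217736 to 3224572 (6837 bp), where both lists showed the same row of peaks. In order along the chromosome, replicate 1 had folds of 41.9, 11.3, 18.6, 14.8, 19.1 and 5.49, and replicate 2 had 29.3, 7.91, 14.5, 15.5 and 7.69. The first summits lay 140 bp apart, on 178 fragments in replicate 1 and 214 in replicate 2. Of the bases covered there, 88.0% were covered by both lists.

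Chromosome 19 held 2 domains of high fold, 36.5 kb apart. The one at 5793583 to 5803939 (10357 bp) was nearly a single block, with 1 peak of 9190 bp in replicate 1 (fold 21.2) and 1 of 8544 bp in replicate 2 (fold 19.8). The former was the widest peak of its list. The other, at 5840468 to 5850158 (9691 bp), had a central peak of 3686 bp with a fold of 19.3 in replicate 1 and of 4061 bp with a fold of 28.2 in replicate 2. Small peaks with folds of 3.03 to 6.26 flanked it on both sides.

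Other domains of high fold in both lists were marked at 1 end. On chromosome 5, at 143657100 to 143668468 (11369 bp), the folds of replicate 1 were 3.91 to 5.61 in the first 6 peaks, then 13.4 and finally 22.3. Replicate 2 had peaks only in the later part, with folds of 9.19, 10.2 and 23.9, and the strongest summits of the lists lay 7 bp apart. On chromosome 11, the domain at 115880781 to 115885857 (5077 bp) reached 15.5 and 24.4 near its far end. A further one of chromosome 11, at 6315834 to 6321312 (5479 bp), had 14.2 and 20.9 at 218 and 202 bp from its start.

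On chromosome 12, a pair of domains lay 10.8 kb apart and each had more than 1 strong peak. The first, at 55811517 to 55819358 (7842 bp), had folds of 14.3 and 13.9 at 0.28 and 4.36 kb in replicate 1, and of 20.6 and 22.3 at nearly the same places in replicate 2. The second, at 55830206 to 55839185 (8980 bp), had 13.05, 15.0 and 12.4 at 1.02, 4.87 and 8.68 kb in replicate 1, and 18.6, 19.0 and 9.81 at nearly the same places in replicate 2. The peaks of both lists therefore kept the same spacing here.

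Some strong domains had a much higher fold in 1 list. On chromosome 18, at 35019671 to 35026169 (6499 bp), the fold was 31.0 in replicate 1, in a peak of 5322 bp, and 15.9 in replicate 2, in a peak of 3335 bp. On chromosome 8, at 74842778 to 74848650 (5873 bp), it was 24.6 and 9.53. The domain of chromosome 12 at 86813903 to 86820031 (6129 bp) had a peak of 5229 bp with a fold of 34.0 in replicate 1 and no peak in replicate 2. The same held on chromosome 7 at 19887016 to 19895308 (8293 bp), where peaks of 4327 and 3730 bp had folds of 9.03 and 23.5.

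In replicate 1 the other domains among the 10 of highest fold were on chromosome 5 at 125861764 to 125870222 (folds 19.8 and 13.1 in replicates 1 and 2) and on chromosome 3 at 95461561 to 95472720 (17.98 and 11.9). In replicate 2 they were on chromosome 15 at 79905497 to 79913794 (9.77 and 17.8) and on chromosome 11 at 87236523 to 87242207 (11.2 and 17.7). Both lists had 4 domains in common among their 10 highest.

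Over all domains, the median of the highest fold was 7.87 for the 158 domains with a replicate 1 peak (range 2.30 to 41.9) and 7.84 for the 144 with a replicate 2 peak (2.30 to 29.3). A fold of 10 or more was reached by 42 domains in each list. In the 136 domains with peaks of both lists, replicate 2 gave the higher value in 73 and replicate 1 in 63, with a median ratio of 1.06 (replicate 2 over 1). The folds were within 1.5 times of each other in 86 of them. Each fold is relative to the background of its own list, so these counts do not show which sample had more SSRP1. Spearman's rho between the highest folds was 0.53 across these 136 domains, which share the same 2 libraries.

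**Figure D3:**
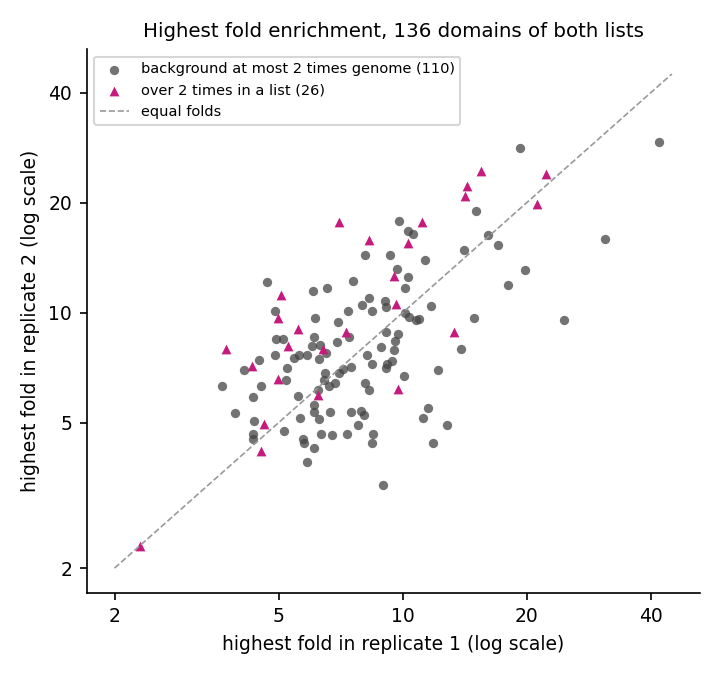
Highest fold of each of the 136 domains with peaks of both lists, replicate 1 (x axis) against replicate 2 (y axis), both on log scales. Points lie on both sides of the line of equal folds, 63 below and 73 above, and triangles mark the 26 domains whose strongest peak lay over more than 2 times the genome background in at least 1 list.

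Both lists supported most domains, but unequally. Peaks of both were found in 136 of 166 domains (81.9%, exact 95% binomial interval 75.2 to 87.5%, counting error only), of replicate 1 alone in 22 and of replicate 2 alone in 8. Among all merged regions of the series 24.3% held peaks of both lists. That total includes 2585 autosomal regions of 1 peak, which cannot hold both. Among the 1110 shorter autosomal regions of 2 or more peaks 69.0% held both (66.2 to 71.7%). A region of more peaks has more chances to hold both, and this was not allowed for. Peaks of both lists built the domains, so the comparison describes how they were made. Of the member peaks, 45.8% in replicate 1 overlapped a peak of replicate 2 by at least 1 bp, where 27.7% of the whole list did. In replicate 2 it was 63.7%, where 54.9% of the whole list did. Members are wider, and a wider peak meets the other list more easily, which was not allowed for.

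Within the domains of both lists, the covered stretches often differed. Replicate 1 covered more bases in 75 and replicate 2 in 61, and the covered lengths were within 1.5 times of each other in 46. Replicate 1 covered over 3 times as much in 35 domains, and replicate 2 in 11. The bases covered by both lists made up a median of 34.2% of all covered bases (interquartile range 14.8 to 53.5%), and 8 domains had none in common. Spearman's rho between the covered shares was 0.21 across the 136 domains.

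**Figure D4:**
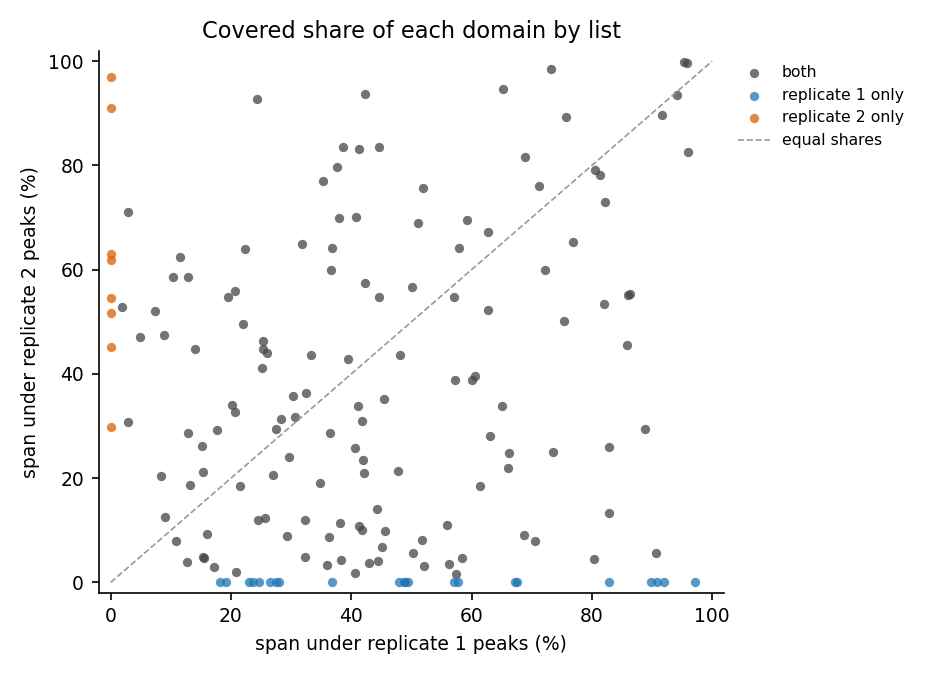
Share of each domain's span under peaks of replicate 1 (x axis, %) and replicate 2 (y axis, %), 1 point per domain, coloured by support. The points scatter widely about the line of equal shares, with 22 domains on the x axis and 8 on the y axis; 27 domains were covered to 50% or more in each list.

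Some long domains rested on replicate 2. On chromosome 18, at 75527058 to 75542387 (15330 bp), replicate 2 had 14 peaks and a highest fold of 7.64, and replicate 1 had 2 peaks and 4.91. On chromosome 2, at 71186072 to 71199265 (13194 bp), 10 peaks of replicate 2 with a highest fold of 7.96 stood against 1 of replicate 1 with 3.72. The longest domain with replicate 2 peaks only was also on chromosome 18, at 38743787 to 38757486 (13700 bp), with 9 peaks, 63.0% cover and a highest fold of 7.23. The next were shorter: chromosome 16 at 31321433 to 31328014, chromosome 6 at 124425699 to 124431380, chromosome 14 at 22301023 to 22306491 and chromosome 1 at 72757960 to 72763178, with highest folds of 8.12, 8.37, 6.15 and 6.40.

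The list of replicate 1 was the longer one, and a smaller share of its regions met the other list. Chained alone, 26.3% of its 3489 regions held a peak of replicate 2, while 60.8% of the 1504 regions of replicate 2 held one of replicate 1. Among long domains too, those of replicate 1 only were more numerous, 22 against 8, and included stronger ones. After the domains of chromosomes 2 and 3 described above, the longest were on chromosome 8 at 86720953 to 86732623 (11671 bp, 6 peaks, highest fold 11.97) and on chromosome 4 at 118791369 to 118799945 (8577 bp, 7 peaks, 5.50), followed by the 8293 bp domain of chromosome 7. Rows of 10 or more peaks were seen in 16 domains in replicate 1 and in 6 in replicate 2, 4 of them in each list. Besides those already given, the rows of replicate 1 were on chromosome 19 at 23214046 to 23229244 (13 peaks), chromosome 3 at 41359691 to 41374451 (10), chromosome 6 at 122676104 to 122690611 (10) and chromosome 10 at 117133977 to 117147779 (14).

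Chaining each list by itself gave domains that the other list had not chosen. Replicate 1 alone formed 124 domains, and 100 of them (80.6%, exact 95% interval 72.6 to 87.2%) held a peak of replicate 2. Over all regions chained in replicate 1 alone the share was 26.3%, and over the shorter ones of 2 or more peaks 45.7% (41.4 to 49.97%). Replicate 2 alone formed 82 domains, of which 74 (90.2%, 81.7 to 95.7%) held a peak of replicate 1. The share was 60.8% over all its regions and 74.9% (69.4 to 79.9%) over the shorter ones of 2 or more peaks. A longer region offers more bases to meet a peak, and this was not allowed for.

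Reaching 5000 bp in both lists separately was less common. Of the 124 domains of replicate 1 alone, 48 (38.7%) overlapped a domain of replicate 2 alone. Of the 82 domains of replicate 2 alone, 48 (58.5%) overlapped one of replicate 1. Of the 166 long domains, 47 contained such a domain in each list, 75 in replicate 1 only and 34 in replicate 2 only. In the remaining 10 the span was reached only by joining the lists. Replicate 1's list was longer: its 2342 peaks of highest −log10 q, as many as replicate 2 had, formed 63 domains.

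The strongest summit often sat near an end. It was within 500 bp of an end in 56 of 158 domains in replicate 1 and in 41 of 144 in replicate 2, and in the outer 10% of the span at either end in 72 and 49. The middle 20%, of the same total length, held it in 21 and 19. Every domain begins and ends with a peak, so summits of all strengths are more frequent there. Of all 903 member summits of replicate 1, 295 lay in these outer stretches and 157 in the middle one, with median folds of 4.87 and 4.68. For the 557 of replicate 2 the numbers were 171 and 99, with median folds of 5.35 and 5.34. The outer share of the strongest summits was thus nearer to that of all summits in replicate 2 than in replicate 1.

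The lists placed the strongest summit together in some domains and far apart in others. The distance between their strongest summits had a median of 1043 bp over 136 domains, and was at most 100 bp in 37 and at most 500 bp in 56. It was over 3000 bp in 46, and in 48 the summits lay on opposite sides of the midpoint. In 25 domains both were in the outer 10% at the same end. Single summits were also less tightly matched in domains: replicate 1 peaks that overlapped a peak of replicate 2 lay a median of 166.5 bp from its nearest summit when they were members and 50 bp otherwise. Members are also wider, whose part in this was not tested.

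**Figure D5:**
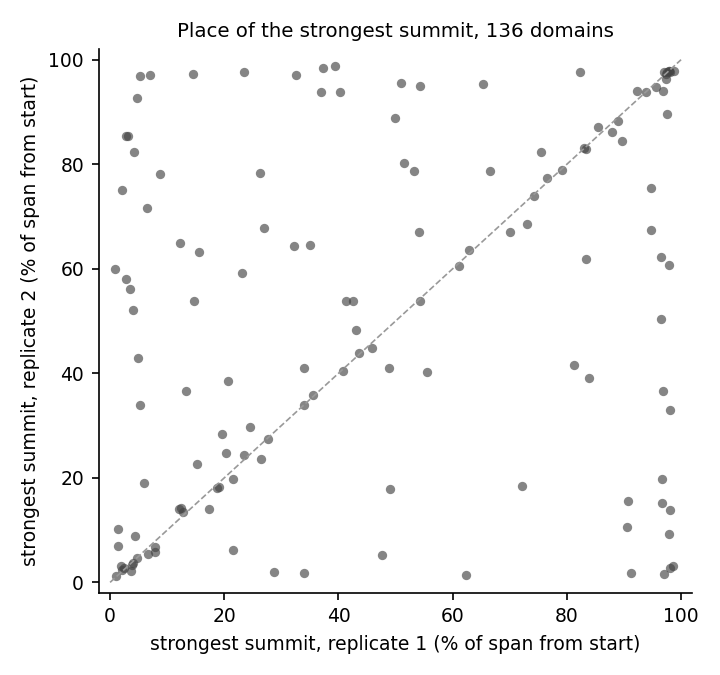
Place of the strongest summit in each of the 136 domains with peaks of both lists, as a percentage of the span from the start, replicate 1 (x axis) against replicate 2 (y axis). Many points lie on the line of equal places, with groups at both ends of it, while 48 domains have their summits on opposite sides of the midpoint.

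Some domains lay over a high local background. In replicate 1, 189 of 903 member peaks (20.9%, exact 95% interval 18.3 to 23.7%) lay over more than 2 times the genome background, where 18.0% of the whole list did. In replicate 2, 38 of 557 did (6.82%, exact 95% interval 4.87 to 9.24%), where 9.74% of the whole list did. Peaks of 1 domain lie close together and are not independent, so these intervals are too narrow to compare members with the list. The share of members was thus above that of the list in replicate 1 and below it in replicate 2. Of the domains, 28 had their strongest peak over such a background in at least 1 list. Only 3 of these were at 5 times or more by that peak. The fully covered domain of chromosome 17 at 39979976 to 39985753 was at 27.3 times in replicate 1 and 18.8 times in replicate 2. There 285 and 400 fragments gave folds of only 4.52 and 4.19, with a −log10 q of 88.5 and 46.5. The domain of chromosome 8 at 19984592 to 19991406 was at 13.7 and 13.98 times, with folds of 2.30 in both lists. The one of chromosome 6 at 47602930 to 47610114 was at 7.91 and 4.37 times, with folds of 4.99 and 6.60. Strongest means highest fold, a ratio over local background, so other peaks of a domain can lie over more. The domain of chromosome 5 at 125861764 to 125870222 had replicate 1 peaks at 6.47 and 6.11 times, while its strongest was at 1.80. Among all member peaks the highest was 41.0 times in replicate 1.

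Long domains lay on all 19 autosomes. Chromosome 11 had the most with 16, followed by chromosome 7 with 14, chromosome 4 with 13 and chromosome 10 with 12, while chromosome 14 had 2. The counts take no account of peak number, and chromosome 11 had the most peaks of any autosome, 410 in replicate 1 and 217 in replicate 2. Members made up 16.3% and 28.6% of these, against 18.0% and 23.8% of the whole lists. The shares were 14.2% and 25.3% for chromosome 7, 22.1% and 18.0% for chromosome 4, and 27.5% and 28.4% for chromosome 10. On chromosome 18, 31 of the 76 peaks of replicate 2 (40.8%) were members, but 24 of the 128 of replicate 1 (18.8%). On chromosome 14 the shares were 5.30% in replicate 1 and 16.4% in replicate 2.

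Several domains were neighbours that the gap limit kept apart. In 8 pairs, made up of 15 domains, the gap was 3.10 to 4.26 kb. A run of 3 lay on chromosome 9 between 59504414 and 59528845, with gaps of 3231 and 3204 bp. On chromosome 3 the domain at 41359691 to 41374451, found in both lists with folds of 10.8 and 9.53, lay 3632 bp from the row of replicate 1 peaks at 41378084 to 41396452. On chromosome 4 the domain at 118791369 to 118799945, of replicate 1 only, lay 3371 bp from one at 118803317 to 118813838. Within 100 kb there were 15 such pairs.

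The limit of 5000 bp cut through regions of the same kind. Just inside were domains of chromosome 17 at 35648688 to 35653693 (5006 bp), chromosome 13 at 19614806 to 19619839 (5034 bp), chromosome 15 at 96525316 to 96530361 (5046 bp), chromosome 1 at 39429192 to 39434257 (5066 bp), and the fully covered one of chromosome 11 (5077 bp). Their covered shares were 45.1, 54.5, 32.2, 66.5 and 100%. Just outside were regions of chromosome 4 at 149611417 to 149616383 (4967 bp), chromosome 19 at 8797997 to 8802953 (4957 bp), chromosome 6 at 115753807 to 115758740 (4934 bp), chromosome 15 at 76734585 to 76739510 (4926 bp) and chromosome 19 at 9078472 to 9083391 (4920 bp), with covered shares of 19.4, 100, 76.9, 34.5 and 36.6%. The window of chromosome 13 that was set apart held 7 regions of 5000 bp or more, with a median span of 7729 bp and a median cover of 51.9%, while the window of chromosome 3 held 0. X and Y held 2 each.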

How the data were processed

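The authors deposited 1 peak list per ChIP sample, and peak names show that each was called separately. STAR, MACS2, deepTools and mm9 are named in the submitters' processing notes without roles. Their versions, settings and controls: not given in the sources used here. Per the narrowPeak layout, the deposited columns used were positions, the fold enrichment (a ratio over local background), −log10 p and −log10 q. Inputs were not analysed here.

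Both lists were chained in Python 3.11.15 (pandas 2.3.3). Overlap means at least 1 bp. Shares have exact Clopper-Pearson 95% intervals (scipy 1.17.1), which cover counting error only. Fragments and background were solved from fold = (pileup + 1) / (background + 1) and the Poisson tail of the pileup. A whole number of fragments met the −log10 p within 0.001 in all 5011 and 2342 peaks, each fragment of replicate 2 counting as 0.416. The lowest backgrounds, 2.28 and 2.07, were taken as genome background. The code for chaining and recovery was checked on simulated data made with the same gap limit and formulas. That check covers the code and not the values recovered for these lists.

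The regions and marks were chosen with earlier results of these data known. Named were the 12 longest domains, the 10 of highest fold per list, those with 10 or more peaks of 1 list, the 5 longest of 1 list alone and 5 on each side of the span limit. Others (full cover, high background, close neighbours) were named after their values were seen. Alternatives changed the gap, span, −log10 q, list, chromosomes and background. Gene names and sequences were not used, since the gene tables at hand are of another build (GRCm38).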

Additional observations from a re-analysis of the deposited data

How the results depend on the processing

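No paired analysis was possible because only ChIP peak lists were analysed, so inputs of the same number gave no values. With a gap of 1000 bp there were 83 domains and 766 member peaks, covered to a median of 82.5%, and with 5000 bp there were 240 domains and 1956 member peaks, with a median span of 7621 bp and a cover of 40.4%. A span of 10000 bp or more left 38 domains with 565 peaks, a median span of 13751.5 bp and 89.5% with peaks of both lists. A −log10 q of 5 or more left 105 domains with 687 peaks, a median span of 7028 bp and a cover of 71.0%. Either list alone gave 82 to 124 domains, median spans of 7069 to 7156 bp, covers of 50.7 to 63.6% and 405 to 793 member peaks. Without peaks over 2 times the genome background, added after the data were seen, there were 146 domains and 1178 member peaks. These domains had a median span of 7069 bp and a median cover of 51.8%. Among domains of replicate 1 alone, 70.2% held a replicate 2 peak with a −log10 q of 5 or more, and 89.3% of the 28 domains of 10000 bp or more held any. With its list cut to the length of the other, also added later, replicate 1 alone formed 63 domains instead of 124. Stricter limits leave fewer peaks to chain; beyond that the cause was not tested. At the weakest summits 10 fragments in replicate 1 and 26 in replicate 2 limit what can be called, so a gap between peaks does not show that SSRP1 is absent.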
